A study of Mus musculus with 4 samples.

Results

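The cytosolic ribosomal protein genes of the mouse cerebellum were followed in Kdm6b-cKO and WT animals. A gene was taken as a member when its symbol was that of a protein of the large subunit (Rpl or Rplp with a number) or of the small subunit (Rps with a number, or Rpsa) and when it reached a level of at least 1 CPM (counts scaled to a common library total) in at least 2 of the 4 libraries. Of 86 symbols of this form, 79 were kept out of 55341 genes in the files, 47 of the large and 32 of the small subunit. One of them, Rps4l, is annotated as a transcribed processed pseudogene and the rest as protein-coding genes. All 79 were among the 16617 genes with enough counts to be tested, so no member was lost to the filter on low counts.

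The ribosome that translates nuclear-encoded mRNAs is built in the nucleolus from ribosomal RNA and about equal amounts of each ribosomal protein, and its mRNAs are among the most abundant of any growing cell. Most of these mRNAs start with a C followed by a run of pyrimidines, the 5′ terminal oligopyrimidine (TOP) tract, through which the kinase complex mTORC1 and the RNA-binding protein LARP1 set how well they are translated. In the postnatal cerebellum, granule neuron precursors divide and then mature into granule neurons, the most numerous neurons of the tissue, and demand for protein synthesis differs between dividing and mature cells.

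RNA-seq was made from cerebellum at postnatal day 14, from 2 cKO mice (Atoh1-Cre; Kdm6b fl/fl) and 2 WT mice (Kdm6b fl/fl), with 1 mouse per library. Kdm6b encodes a histone H3 demethylase, its floxed exons encode the catalytic Jumonji-C domain, and both genotypes carried the floxed alleles. Cre was driven by Atoh1, which is expressed in granule neuron precursors, so cells outside that lineage, such as Purkinje cells and glia, were not targeted. The study describes the animals as littermates and enriched their RNA for poly(A).

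Counts assigned to genes totalled 9892363 and 8811849 in cKO 1 and cKO 2, and 9358139 and 9421970 in WT 1 and WT 2. Kdm6b, counted over exons inside and outside the floxed part, was at 127 and 119 CPM in cKO and 154 CPM in each WT library, a log2 fold change of -0.33 ± 0.08 (SE; edgeR quasi-likelihood test, Benjamini-Hochberg adjusted p = 0.0162). Xist, which silences one X chromosome of females, had 1409 and 1599 CPM in the cKO libraries, 0.431 CPM in WT 1 and 1359 CPM in WT 2, and the sum of 4 Y-linked genes reached 233 CPM in WT 1 but no more than 0.672 CPM elsewhere. WT 1 therefore had the male pattern and the other 3 libraries the female one, and the member counts, medians and calls are also given for the fit without WT 1. Mature granule neuron markers and markers of Purkinje cells, Bergmann glia and oligodendrocytes were detected in all 4 libraries. In such bulk tissue, more cells of a type that is rich in these mRNAs and more of the mRNA per cell cannot be told apart.

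The sequences around the RNA starts of members that the comparison turned on show which of them carry a TOP-like tract. RefSeq start regions of build GRCm38.p6 were matched for 58 of the 79 members, and each window below runs from 15 bases before the annotated first base through the first 15 bases of the RNA. The first 8 are all of the members past the significance threshold that had a region, and the last 4 are members that did not pass it, picked as examples with a clear tract. Capitals mark a run of at least 5 bases that begins with C, goes on with C or T only, and starts within 10 bases of the annotated first base.
Rpl27, chr11:101442230-101442259, + strand: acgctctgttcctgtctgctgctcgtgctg
Rpl23, chr11:97782425-97782454, - strand: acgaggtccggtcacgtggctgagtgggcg
Rpl35a, chr16:33056438-33056467, + strand: gcggggcgtgcgtcccacaaggccgcgcgg
Rpl9, chr5:65391417-65391446, - strand: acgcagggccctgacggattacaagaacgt
Rpl34, chr3:130730323-130730352, - strand: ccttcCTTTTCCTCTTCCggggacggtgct
Rps16, chr7:28350674-28350703, + strand: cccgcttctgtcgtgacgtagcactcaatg
Rps18, chr17:33955651-33955680, - strand: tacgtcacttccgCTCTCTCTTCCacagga
Rps9, chr7:3704026-3704055, + strand: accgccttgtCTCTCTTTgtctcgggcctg
Rps24, chr14:24490663-24490692, + strand: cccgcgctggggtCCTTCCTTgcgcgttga
Rps27, chr3:90213634-90213663, - strand: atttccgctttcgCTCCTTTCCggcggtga
Rpl18, chr7:45718056-45718085, + strand: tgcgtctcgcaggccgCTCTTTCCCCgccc
Rpl38, chr11:114668565-114668594, + strand: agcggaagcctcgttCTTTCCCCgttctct
Rpl34, Rps18, Rps9 and the 4 members that did not pass carried a run of 8 bases or more at or near the start, whereas Rpl27, Rpl23, Rpl35a, Rpl9 and Rps16 did not in these windows. The annotated starts were not exact. The RefSeq start lay within 10 bases of the start of the first GENCODE transcript for 22 of the 58 members, and for Rpl27 it lay 53 bases from it, so a missing run says only that these letters are not in the window.

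A run of 8 or more pyrimidines was present in 23 of the 58 members (39.7%), in 8.40% of 11438 other tested genes and in 8.26% of all 20577 genes with a region. The letters CCGGAAG, the core bound by ETS factors, occurred on either strand of the 300-base region in 39.7% of members, in 16.8% of other tested genes and in 11.1% of all genes. GATGGC, the core of the YY1 site, occurred in 22.4%, 14.9% and 13.9% of the same 3 sets. CACGTG, the E box of MYC proteins, occurred in 8.62% of members, 9.69% of other tested genes and 7.63% of all genes, and GGGCGG, the SP1 box, in 63.8%, 63.4% and 42.9%. The pyrimidine run and the ETS core had higher shares in members than in other tested genes, and the E box and SP1 box had similar shares. The ETS core also occurred in 34.8% of 66 mitochondrial ribosomal protein genes and in 42.5% of 40 ribosome biogenesis genes, so a share near that of the members was not limited to them. The run of 8 or more occurred in 5 of these mitochondrial ribosomal protein genes and in 1 of the ribosome biogenesis genes. None of these letter motifs contains another. On the opposite strand the ETS core reads CTTCCGG, whose CTTCC can belong to a pyrimidine run, as in the printed Rpl34 window. The run and the ETS core can therefore share bases. Among the 8 members past the threshold with a region, 3 had the run of 8 or more, and among the 50 that did not pass, 20 had it.

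Levels of the members were first compared with one another, per kilobase of the first annotated transcript. Ribosomal protein mRNAs had similar levels, at a median of 136 CPM per kb in cKO and 115 in WT for the large subunit, and of 133 in cKO and 116 in WT for the small subunit. In WT, 42 of 47 large-subunit and 28 of 32 small-subunit members lay between 50 and 300 CPM per kb. Rplp1, one of the acidic stalk proteins that recruit elongation factors, was the most abundant of the large subunit (287 CPM per kb in cKO and 233 in WT), followed by Rpl23a (265 in cKO and 229 in WT), which shares 62.3% of its exon bases with another gene, and Rpl13 (219 in cKO and 204 in WT). Rps24 was the most abundant of the small subunit (316 CPM per kb in cKO and 278 in WT), followed by Rps14 (228 in cKO and 215 in WT) and Rps15 (215 in cKO and 184 in WT). The order of the members was kept between genotypes, with a Pearson r of 0.99 and a Spearman rho of 0.98 between the log2 levels in cKO and in WT across the 79 genes, which share their libraries and lengths and are not independent replicates.

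**Figure D1:**
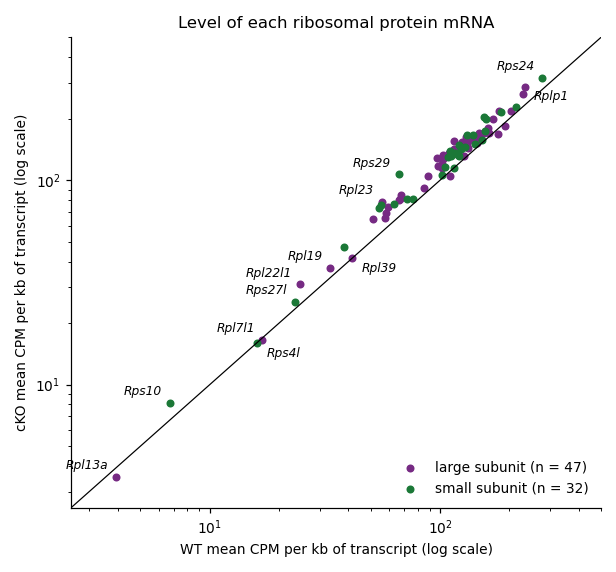
Mean level of each of the 79 ribosomal protein mRNAs in cKO (vertical axis) against WT (horizontal axis), in CPM per kb of transcript on log scales, with 1 point per gene, n = 2 libraries per group and a line at equal levels. Most points lie above the line, Rps29 is among the farthest above it, and the second copies, Rps10 and Rpl13a lie at the low end.

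Second copies of ribosomal proteins were expressed well below their partners. Rpl22l1, the paralogue of Rpl22, reached 20.8% and 17.96% of the level of Rpl22 per kb in cKO 1 and cKO 2, and 15.7% and 19.8% in WT 1 and WT 2. Rps27l stood at 18.7% and 16.1% of Rps27 in cKO, and at 19.1% and 19.9% in WT. Both copies thus made up a minor share of their pair in every library. Rpl7l1 stood at 11.3% and 10.8% of Rpl7 in cKO, and at 13.1% and 12.8% in WT. Rps4l, which the annotation lists as a transcribed processed pseudogene, stood at 10.9% and 13.3% of Rps4x in cKO, and at 12.9% and 13.6% in WT. The shares of Rpl22l1 and Rps4l overlapped between genotypes, those of Rps27l and Rpl7l1 were lower in both cKO libraries, and none of the 4 copies passed the test for a change in its own level (adjusted p from 0.355 to 0.987, edgeR quasi-likelihood test). Rpl22l1 itself was at 17.34 and 16.80 CPM in cKO and at 11.97 and 15.23 CPM in WT (log2 fold change 0.33 ± 0.17, SE).

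The 7 symbols that were not kept, of which Rpl32l and Rpl6l are annotated as processed pseudogenes, had almost no counts. Rpl10l had 0 counts in all 4 libraries, and Rpl32l, Rpl36al, Rpl39l and Rpl6l had at most 2 counts in any library. Rpl24, a constitutive protein of the large subunit, had 5 and 3 counts in cKO and 3 and 4 in WT, and 47.0% of its exon bases lie in exons of another annotated gene. Rpl13a was kept at 3.93 and 3.47 CPM in cKO, against 4.42 and 3.78 CPM in WT. Rps10 was kept at 5.24 and 3.25 CPM in cKO, against 4.75 and 2.27 CPM in WT. Both overlapped between genotypes, and these too share exon bases with other genes, 35.4% for Rpl13a and 28.7% for Rps10. HTSeq by default assigns no read that falls on exons of more than 1 gene, so the levels of Rpl24, Rpl13a and Rps10 are uncertain, and the part of shared exons in their low counts was not tested. In all, 37 members share some exon bases, and 61 have at least 1 annotated pseudogene of the same name, whose reads can be lost as multiple alignments.

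The main comparison asked whether these genes differed between cKO and WT cerebellum. A minority of ribosomal protein mRNAs, from both subunits, rose modestly in cKO, and none fell by the test. Of the 79 members, 13 rose (16.5%) and 0 fell, against 1.87% higher and 2.17% lower among all 16617 genes tested (edgeR quasi-likelihood test, Benjamini-Hochberg adjusted p under 0.05). At an unadjusted p under 0.05 in edgeR's test, 47 members were higher and 0 lower, against 1298 higher and 1412 lower of all 16617 genes. DESeq2, which gave an adjusted p to 74 of the 79 members, called 6 higher and 0 lower, and limma-voom called 12 higher and 0 lower. Of the same 16617 genes, 9304 had an adjusted p in DESeq2, which called 141 higher and 183 lower. Limma-voom called 282 of the 16617 higher and 366 lower. The median log2 fold change was 0.22 over the members, with 71 of 79 above 0, and 0.00 over all tested genes. In 50 of the 79 members both cKO libraries lay above both WT libraries, which 23.2% of all tested genes did, and in 0 members did both lie below, which also 23.2% of tested genes did.

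The libraries differed in how much of their counts these genes took. Summed over the 79 members, the level was 7598 and 8507 CPM in cKO 1 and cKO 2, and 6858 and 7272 CPM in WT 1 and WT 2. They made up 0.762% and 0.862% of the counts in genes in cKO, and 0.679% and 0.715% in WT. The groups did not overlap in the sum, and the mean of the cKO sums was 13.97% above that of WT. Library cKO 2 held the highest value of the 4 libraries for 68 of the 79 members, and WT 1 held the lowest for 55. Over all tested genes, cKO 2 lay above cKO 1, WT 1 and WT 2 in 50.1%, 50.2% and 50.8% of genes. There WT 2 and cKO 1 lay above WT 1 in 50.6% and 49.9%.

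Large-subunit genes had a median log2 fold change of 0.23, with 41 of 47 above 0 and 8 past the threshold: Rpl27, Rpl23, Rpl30, Rplp1, Rpl35a, Rpl9, Rpl8 and Rpl34. Genes past the threshold were picked by the test on these same values. Separation of their genotypes, here and below, therefore adds no support to the calls. In 23.2% of all tested genes both cKO libraries lay above both WT libraries. Rpl23, whose protein can bind the p53 regulator MDM2, is encoded at chr11:97777527-97782437 on the minus strand (ENSMUSG00000071415.6, GRCm38, GENCODE M21). It was at 82.3 and 84.0 CPM in cKO and at 53.9 and 64.5 CPM in WT. Both cKO values were alike and above both WT values, and its log2 fold change of 0.49 ± 0.09 (SE; adjusted p = 0.00353) was the largest of the large subunit. Rpl27, a gene mutated in some patients with Diamond-Blackfan anaemia, lies at chr11:101442298-101445529 on the plus strand (ENSMUSG00000063316.13). Its level was 91.6 and 98.9 CPM in cKO and 69.6 and 71.4 CPM in WT, with a log2 fold change of 0.43 ± 0.08 (adjusted p = 0.00331). The gap between its genotypes exceeded the gap within either of them.

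Rpl30, which in budding yeast binds and represses its own transcript, had 76.5 and 69.1 CPM in cKO and 54.9 and 56.2 CPM in WT (log2 fold change 0.39 ± 0.09, adjusted p = 0.0167). Here cKO 1 was the higher of the cKO libraries, and 24.8% of the exon bases of Rpl30 are shared with other genes. Rpl35a, another gene of Diamond-Blackfan anaemia, had 63.7 and 66.0 CPM in cKO and 49.1 and 51.7 CPM in WT (0.36 ± 0.09, adjusted p = 0.0321). Rplp1 had 139 and 147 CPM in cKO and 114 and 119 CPM in WT (0.30 ± 0.08, adjusted p = 0.0302). Rpl9, a core protein of the large subunit, had 108 and 119 CPM in cKO and 89.2 and 94.4 CPM in WT (0.30 ± 0.08, adjusted p = 0.0404). In all 4 genes, picked by the test on these values, the genotypes did not overlap. Rpl8, which lies close to the peptidyl transferase centre, and Rpl34 passed with log2 fold changes of 0.27 and 0.32, and without cKO 2 the value of Rpl34 was 0.20.

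Small-subunit genes had a median log2 fold change of 0.21, with 30 of 32 above 0 and 5 past the threshold, among them Rps29, Rps16, Rps18 and Rps9. Rps29, a small zinc-binding protein of the subunit's head, is encoded at chr12:69157722-69159186 on the minus strand (ENSMUSG00000034892.8) and had the largest change of all members. It was at 38.1 and 45.3 CPM in cKO and at 23.9 and 27.6 CPM in WT, a log2 fold change of 0.69 ± 0.13 (SE; adjusted p = 0.00240), or 1.61-fold. Its lower cKO library exceeded its higher WT library by more than the gap within either genotype.

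Rps16, whose tail reaches the tRNA in the peptidyl site, had 77.6 and 83.9 CPM in cKO and 57.6 and 62.5 CPM in WT (0.43 ± 0.09, adjusted p = 0.00728). Rps18, a protein of the head at the interface with the large subunit, had 90.9 and 95.4 CPM in cKO and 70.8 and 75.6 CPM in WT (0.35 ± 0.08, adjusted p = 0.0180). Rps9, which lies near the entry of the mRNA channel, had 141 and 159 CPM in cKO and 114 and 124 CPM in WT (0.34 ± 0.08, adjusted p = 0.0216). The 2 genotypes did not overlap in any of these genes, which were picked by the test on these same values. Rps28 had the third largest log2 fold change of all members, 0.45 ± 0.14, at 31.1 and 28.0 CPM in cKO and 23.4 and 19.9 CPM in WT, and did not pass (adjusted p = 0.0666).

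**Figure D2:**
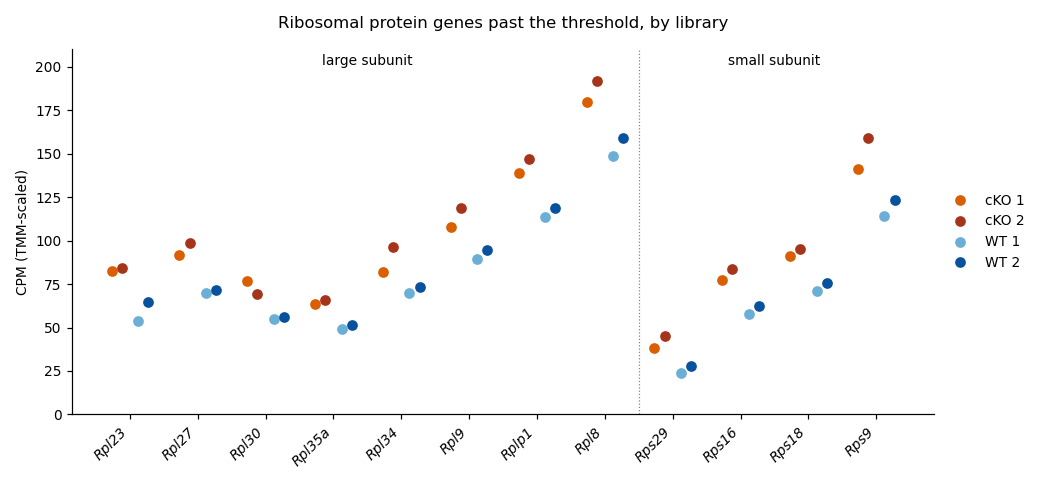
CPM (vertical axis) of 12 of the 13 ribosomal protein genes past the threshold in each library, with cKO 1 and cKO 2 left of WT 1 and WT 2 for every gene and 1 point per library. Both cKO points lie above both WT points in all 12 genes, from Rps29 at 23.9 to 45.3 CPM to Rpl8 at up to 192 CPM. The genes were picked by the test on these same values, and 23.2% of all tested genes also had both cKO libraries above both WT libraries.

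Of the members without a call, several lay close to the WT level. Rpsa, the laminin receptor precursor, was at 203 and 243 CPM in cKO and at 223 CPM in each WT library, with a log2 fold change of 0.00 ± 0.08. Rps6, the target of S6 kinase downstream of mTORC1, was at 87.6 and 98.7 CPM in cKO and at 90.3 and 89.4 CPM in WT (0.05 ± 0.08). Both genes were lower than WT in cKO 1 and higher in cKO 2. The lowest log2 fold changes belonged to Rpl13a (-0.14 ± 0.32, at the low counts given above) and Rpl26 (-0.08 ± 0.09), and neither passed (adjusted p = 0.882 and 0.708). Rpl26 was at 82.96 and 93.99 CPM in cKO and at 90.61 and 96.54 CPM in WT, which overlapped. Other members without a call differed as much as some that passed. Rpl11 was at 103 and 124 CPM in cKO and at 86.5 and 95.1 CPM in WT. Rpl5 and Rpl11, which form a complex with 5S ribosomal RNA that restrains MDM2, had log2 fold changes of 0.17 ± 0.09 and 0.32 ± 0.09 (adjusted p = 0.355 and 0.0507).

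**Figure D3:**
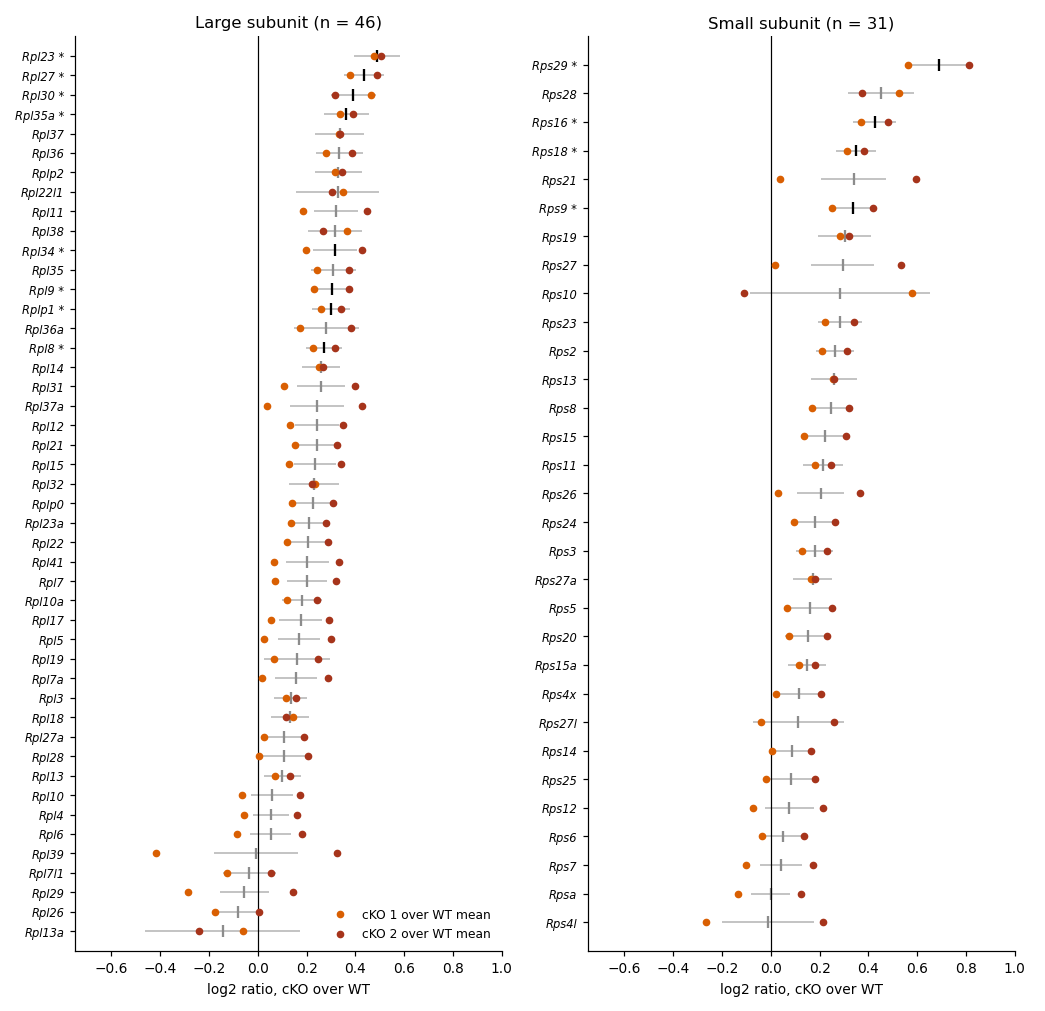
Log2 ratio of each cKO library to the WT mean (points, cKO 1 and cKO 2) and the fitted log2 fold change with its SE (tick and grey bar, n = 2 libraries per group) for 46 of the 47 large-subunit and 31 of the 32 small-subunit genes, ordered by fold change. Asterisks and black ticks mark the genes past the threshold, and most points of both libraries lie right of 0, with those of cKO 2 mostly farther right.

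The 2 cKO libraries stood at different distances from WT. Relative to the WT mean, the median log2 ratio of the large subunit was 0.13 in cKO 1 and 0.31 in cKO 2, and that of the small subunit was 0.12 in cKO 1 and 0.26 in cKO 2, while the median of all tested genes was 0.00 in both. Across the 79 members the ratios in cKO 1 and cKO 2 had a Pearson r of 0.45 and a Spearman rho of 0.57, which is a description only because both are taken over the same WT mean. Between single libraries, the median over all members was 0.17 for cKO 1 over WT 1, 0.08 for cKO 1 over WT 2, 0.33 for cKO 2 over WT 1 and 0.22 for cKO 2 over WT 2. Within groups it was 0.17 for cKO 2 over cKO 1 and 0.08 for WT 2 over WT 1. The gap between cKO 1 and WT 2 was therefore about that between the 2 WT libraries and under that between the 2 cKO libraries. Between cKO 1 and WT 2, 52 of 79 members (65.8%) were higher in cKO 1, against 50.4% of all tested genes.

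**Figure D4:**
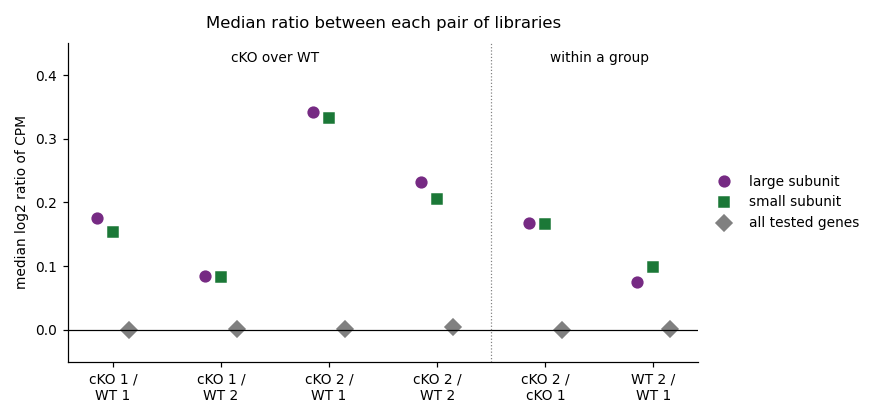
Median log2 ratio of CPM between each pair of libraries (vertical axis) over large-subunit genes, small-subunit genes and all tested genes, with the 4 cKO over WT pairs left and the 2 pairs within a genotype right. All tested genes stay at 0, and the subunits range from 0.08 to 0.34 between genotypes and from 0.08 to 0.17 within them.

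The number of members past the threshold rested on single libraries. Each fit without 1 library also called fewer genes over all tested genes, so the loss of calls was not particular to the members. Without WT 1, the library with the male pattern, the medians were 0.17 for the large and 0.16 for the small subunit, and 3 of the 13 genes still passed, among them Rpl27 and Rps29. The other 10 lost their call, with adjusted p from 0.0999 for Rpl23, whose log2 fold change was 0.37 without WT 1, to 0.483 for Rpl8. Without WT 2 the medians were both 0.26 and 12 members passed, 7 of them among the 13. Without cKO 1 the medians of the large and small subunit were 0.31 and 0.26, and without cKO 2 they were 0.13 and 0.12. In each of these comparisons against 1 cKO library no gene of any kind passed the threshold, so they give effect sizes only.

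The 4 X-linked members were examined apart because the libraries differed in sex. None of Rpl10, Rpl36a, Rpl39 and Rps4x passed, and their median log2 fold change was 0.09, against 0.22 for the 75 autosomal members. Rpl36a was at 36.0 and 41.6 CPM in cKO and at 27.3 and 36.5 CPM in WT (0.28 ± 0.13), and without WT 1 its value was 0.09. Rps4x was at 120 and 136 CPM in cKO and at 107 and 130 CPM in WT (0.12 ± 0.09), and its value without WT 1 was -0.02. Both were lowest in WT 1, as were 55 of the 79 members in all. Rpl10, which joins the large subunit late in its assembly, and Rpl39, which lines the exit tunnel, had log2 fold changes of 0.06 ± 0.08 and -0.01 ± 0.17. Without WT 1 their values were 0.05 and 0.01, and both genes were lowest in cKO 1.

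The fold change was set against length, base composition and level of the members. Across the 79 members the log2 fold change had a Pearson r of -0.38 and a Spearman rho of -0.35 with log2 transcript length, so shorter mRNAs tended to have the larger fold changes, against r = -0.00 over 13542 other protein-coding genes. With GC content of the transcript r was -0.02 over members and -0.03 over the other genes. With log2 mean WT CPM, which also enters the fold change, r was -0.16 and rho -0.39 over members. The 59 members with transcripts under 1000 bp had a median log2 fold change of 0.23, and the 20 longer ones 0.17. Of 1012 other protein-coding genes with transcripts under 1000 bp, 22 rose and 21 fell, and their median was 0.03. With offsets for GC content and length in the fit the median was 0.20 for the large and 0.19 for the small subunit. In that fit 15.2% of members (12) and 1.79% of all tested genes were higher past the threshold. The 42 members that share no exon bases with another gene had a median of 0.25 with 11 past the threshold, and the 37 that do had 0.18 with 2.

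Genes related to the ribosome by function were compared by the same fit. Single genes passed among the translation factors and in mTORC1 signalling, and none did in ribosome biogenesis, in the MYC family or among the ribosomal proteins of mitochondria. The translation factors and partners were listed for TOP mRNAs, and 4 of 13 with a start region had a run of 8 or more. This list had a median log2 fold change of 0.08, with 17 of 19 above 0, and 1 of 19 rose. This was Hnrnpa1, an RNA-binding protein that shuttles between nucleus and cytoplasm, at 359 and 365 CPM in cKO and at 251 and 231 CPM in WT (0.59 ± 0.07, adjusted p = 2.63e-05). Its genotypes were far apart compared with the gaps within them, but it too was picked by the test on these values. Eef1a1, the main elongation factor that carries tRNA to the ribosome, was at 1304 and 1442 CPM in cKO and at 1175 and 1246 CPM in WT (0.18 ± 0.07, adjusted p = 0.173), and Eef2, the translocase, was at 1286 and 1262 CPM in cKO and at 1197 and 1247 CPM in WT (0.06 ± 0.07, adjusted p = 0.721).

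The ribosomal proteins of mitochondria, which are encoded in the nucleus and build a separate ribosome, had a median log2 fold change of 0.02, with 0 of 75 higher and 0 lower in edgeR's test. At an unadjusted p under 0.05, 1 was higher and 2 were lower. DESeq2, with an adjusted p for 54 of the 75, and limma-voom called none in either direction. Their summed level was 1924 and 2016 CPM in cKO and 1943 and 1965 CPM in WT, which overlapped. Genes of ribosome biogenesis had a median log2 fold change of 0.05, with 0 of 46 higher and 0 lower by edgeR and limma-voom. DESeq2, with an adjusted p for 37 of the 46, also called 0 in either direction. At an unadjusted p under 0.05 edgeR had 5 of the 46 higher and 0 lower. Over all 16617 tested genes edgeR had 1298 higher and 1412 lower at that cut. Among the 5 were Fbl and Ubtf. Fbl, the methyltransferase of ribosomal RNA, was at 23.2 and 27.4 CPM in cKO and 15.9 and 22.4 CPM in WT. Ubtf, a factor of RNA polymerase I, was at 258 and 264 CPM in cKO and 233 and 232 CPM in WT. In both genes the cKO libraries lay above the WT libraries, as in 23.2% of all tested genes. Their adjusted p were 0.196 and 0.189 in edgeR's test.

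Of 23 genes of mTORC1 signalling and TOP mRNA control, 1 rose and 2 fell. Eif4ebp2, a repressor of cap-dependent translation that mTORC1 inactivates, was at 119 and 144 CPM in cKO and 97.3 and 111 CPM in WT (0.34 ± 0.09, adjusted p = 0.0408). The Rag GTPases Rragd and Rraga, which bring mTORC1 to the lysosome in response to amino acids, were lower in cKO. Rragd was at 66.8 and 57.3 CPM in cKO and 95.3 and 86.6 CPM in WT (-0.55 ± 0.09, adjusted p = 0.00102), and Rraga was at 80.0 and 79.1 CPM in cKO and 94.5 and 104 CPM in WT (-0.32 ± 0.08, adjusted p = 0.0329). The median of this list was -0.04. In the MYC family, some of whose members drive ribosome production, 0 of 11 passed in either direction by edgeR or limma-voom. DESeq2, with an adjusted p for 8 of the 11, also called 0. In edgeR 1 was higher and 0 were lower at an unadjusted p under 0.05, and the median was 0.11. Myc was at 4.03 and 6.16 CPM in cKO and 2.81 and 4.32 CPM in WT, and Mycn was at 13.7 and 20.9 CPM in cKO and 13.1 and 14.8 CPM in WT, so both overlapped.

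Ribosome genes whose symbols lie outside the naming pattern were followed in Rps3a1, Fau and Rack1. Rps3a1 was at 124 and 136 CPM in cKO and 120 and 130 CPM in WT (0.06 ± 0.08). Fau, a ubiquitin-like fusion with a small-subunit protein, was at 87.4 and 88.6 CPM in cKO and 97.5 and 82.8 CPM in WT (-0.04 ± 0.09). Rack1, a scaffold on the small subunit, was at 120 and 150 CPM in cKO and 129 and 134 CPM in WT (0.03 ± 0.09). Their values overlapped between genotypes. None of these 3 passed in edgeR's test (adjusted p from 0.785 to 0.909), with DESeq2 or with limma-voom, and 0 had an unadjusted p under 0.05.

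**Figure D5:**
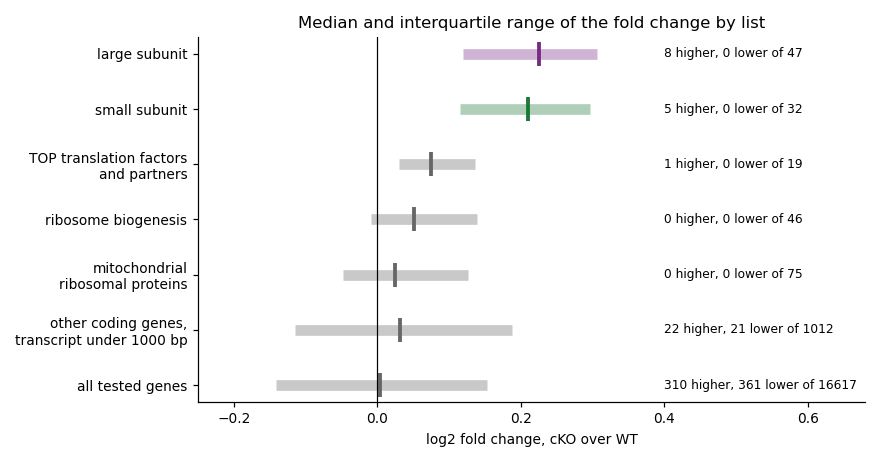
Median (tick) and interquartile range (bar) of the log2 fold change, cKO over WT (horizontal axis), for ribosomal protein genes by subunit, 3 of the related lists (mTORC1 signalling, the MYC family and genes outside the naming pattern are not drawn), other short protein-coding genes and all tested genes, with counts of genes past the threshold at the right. The 2 subunits stand at 0.23 and 0.21, the other lists drawn between 0.02 and 0.08, and all tested genes at 0.00.

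Markers of several cell types and measures of the libraries also differed between genotypes, and their part in the result was not tested. Of 15 newborn granule neuron markers, 11 rose and 0 fell, led by Sox11, Cd24a and Tubb2b, with summed levels of 4105 and 4926 CPM in cKO and 3323 and 3560 CPM in WT. Of 15 mature granule neuron markers, 10 fell and 0 rose, led by Car4, Grm4 and Gabra6, with sums of 6694 and 5999 CPM in cKO and 8051 and 8175 CPM in WT. In both lists, as in the ribosomal proteins, cKO 2 stood farther from WT than cKO 1. Median log2 ratios to the WT mean were 0.41 in cKO 1 and 0.76 in cKO 2 for newborn markers, and -0.22 in cKO 1 and -0.42 in cKO 2 for mature markers. Of 20 cell cycle genes 4 rose, among them Cenpf and Top2a, with sums of 222 and 336 CPM in cKO and 176 and 199 CPM in WT, and 0 fell. Of 10 granule neuron progenitor markers tested 3 rose, Barhl1, Sfrp1 and Ccnd2, and 0 fell, but 5 of the 10 had log2 fold changes below 0, down to -0.59, and the list's median was 0.00.

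Choroid plexus markers stood apart in 1 library, summing to 1155 and 227 CPM in cKO 1 and cKO 2, and to 227 and 211 CPM in WT 1 and WT 2. Bergmann glia and astrocyte markers summed to 4681 and 4538 CPM in cKO and to 5207 and 5118 CPM in WT, with 1 of 12 higher and 4 lower. Oligodendrocyte markers summed to 9740 and 9831 CPM in cKO and to 11091 and 10574 CPM in WT, with 2 of 14 higher and 3 lower. Purkinje cell markers summed to 6218 and 5886 CPM in cKO and to 6665 and 6645 CPM in WT, with 1 of 12 higher and 1 lower. In all 3 lists both cKO sums lay below both WT sums. Sums were 134 to 148 CPM in cKO and 143 to 145 CPM in WT for microglia markers, and 404 to 408 CPM in cKO and 409 to 410 CPM in WT for endothelial and mural markers. Genes that overlap ribosomal RNA repeats summed to 1066 and 1160 CPM in cKO and to 4653 and 7164 CPM in WT, all 4 lower in cKO, and mitochondrially encoded genes summed to 19494 and 19786 CPM in cKO and to 23282 and 22029 CPM in WT. With these genes and the members themselves kept out of the scaling factors, 13 members again passed, against 1.85% higher over all tested genes. The medians were then 0.23 for the large and 0.21 for the small subunit.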

How the data were processed

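The submitters' processing notes name Trimmomatic 0.38 for trimming, STAR 2.7.2b for alignment and mm10 as the build, and the methods name HTSeq with exon features for counting. Whether it used strand is not given in the sources used here. Whole-number counts per gene symbol, with no normalisation, were what the authors deposited. Entries that name no gene (48.8% to 49.6% in no feature, 8.97% to 9.14% not uniquely aligned, 0.805% to 0.917% ambiguous) stayed out of library sizes and tests. Groups came from sample titles, because the description field of both replicate 2 samples shows the number 1.

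Genes were filtered with filterByExpr, scaled by TMM and tested with the two-sided quasi-likelihood test of edgeR 4.0.16 (R 4.3.3), with genotype as the only term and Benjamini-Hochberg adjustment over all 16617 genes at 0.05. Replicates differed beyond counting noise (chi-square per degree of freedom 3.99 in cKO and 3.56 in WT). P-values set the difference between genotypes against the spread between mice of a genotype, estimated with help from all tested genes. In WT that spread includes the difference between a mouse with the male pattern and one with the female pattern. Members had a median of 906 and 885 counts in cKO and 768 and 792 in WT. Levels per kb used the first GENCODE transcript and not union exon length, which retained introns inflate, a choice made after seeing the data. The fit was tested on simulated counts.

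Members and gene lists were chosen with earlier results of these data known. Some genes that the naming rule takes are not reported here. Named were Kdm6b, members past the threshold, the 3 highest and 3 lowest fold changes, the 3 most abundant per subunit, second copies, X-linked members, 4 ribosome genes outside the pattern, and up to 3 genes past the threshold per list. Rps6, Rpsa, Rpl5, Rpl11, Rpl24, Rps10, Xist, Eef1a1, Eef2, Fbl, Ubtf, Myc and Mycn, and the printed starts of Rps27, Rpl18 and Rpl38, were added after their values were seen. Alternatives covered scaling, filters, DESeq2 1.42.0, limma-voom 3.58.1, a replicate block, GC and length offsets, leaving out X and Y genes, adding same-named pseudogenes, and leaving out each library.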

Additional observations from a re-analysis of the deposited data

How the results depend on the processing

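The number of members higher in cKO, 13, was 22 with library size alone, 2 with no filter on low counts and 6 with DESeq2, and ranged from 0 (without cKO 1, and without cKO 2) to 12 (without WT 2) when 1 library was left out, with 3 without WT 1. With the replicate block it was 27, with block and GC and length offsets 15. The numbers in the titles do not pair these animals by any label: deviations of same-numbered libraries correlated at 0.04 over all tested genes and 0.35 over members. The other 8 settings gave 10 to 16, and 0 members were lower under any setting. The subunit medians stayed between 0.13 and 0.31 (large) and between 0.12 and 0.26 (small) when 1 library was left out, with the lowest value in each without cKO 2. Over all genes, 46.2% of those past the threshold were higher in cKO, against 59.8% with library size alone and 37.0% with upper quartile scaling. All-gene counts were 310 higher and 361 lower in the main fit, 434 and 292 with library size alone, and 71 and 106 with no filter. They were 141 and 183 with DESeq2, 549 and 581 with the replicate block, and 363 and 413 with block and offsets. Where leaving out a library left 1 sample in a group, the fit took that sample to be as variable as the remaining ones. With 2 animals per genotype and 1 WT animal of the other sex, members short of the threshold are not shown to be unchanged.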
